A study of Drosophila sechellia with 6 samples.

Results

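The 7 genes described here, *hunchback* (*hb*), *knirps* (*kni*), *fushi tarazu* (*ftz*), *engrailed* (*en*), *hedgehog* (*hh*), *short gastrulation* (*sog*) and *Sry-alpha*, pattern or cellularise the early fly embryo. They were chosen by symbol, and each symbol occurs once among the 17275 entries of the expression table. The table compares adult female *D. sechellia* of strain 14021-0428.25 kept for 24 hr on control food with females of the same strain kept for 24 hr on food containing 0.7% octanoic acid (OA), the main toxin of the fruit this species feeds on. Each group had 3 poly(A) RNA-seq libraries, and each library was made from 10 pooled whole flies. The flies are described as 1 to 4 days old in one label and as 0 to 3 days old when collected in another, and were reared at 20 degrees. Whether the females had mated is not given in the sources used here. The deposited table holds 1 value per gene and group, in FPKM, a count of read fragments that takes account of transcript length and sequencing depth. Spread among libraries could therefore not be measured, no test was made and every difference below is a difference between 2 group values.

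In *D. melanogaster* the embryo is first patterned by RNAs that the mother loads into the egg. Gap genes such as *hb* and *kni* then divide the body into broad regions, pair-rule genes such as *ftz* divide it into segments, and segment polarity genes such as *en* and *hh* set up the borders of each segment. *sog* encodes an extracellular antagonist of BMP signalling that patterns the back-to-belly axis, and *Sry-alpha* is needed when membranes enclose the nuclei of the blastoderm. Of these genes only *hb* is known in *D. melanogaster* as both maternal and zygotic. The other 6 are known there mainly as genes that the embryo itself transcribes. Some are used again later in life, and *hh* for example signals in the adult ovary.

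*Sry-alpha* stood apart from the other patterning genes. It was lower in OA, and the only one of the 7 above 0 in both groups whose values differed by at least 2-fold. *ftz*, below 1 FPKM in control and listed at 0 in OA, is given no fold. The maternal and zygotic gene *hb* was slightly higher in OA, 5 of the 6 zygotic genes were lower and the sixth, *sog*, was slightly higher. Of the protein-coding entries above 0 FPKM in at least 1 group, 42.1% were lower by any amount. Among the 5 lower genes, *ftz* and *en* were below 1 FPKM in both groups, and the 2 values of *en* were nearly equal.

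*Sry-alpha* (FBgn0020088) lies on scaffold 4 of the Ensembl assembly from 4713135 to 4714724. Its level was 21.6 FPKM in control and 1.80 FPKM under OA. The OA value was thus 12.0-fold lower in FPKM. With 1 FPKM added to both values, a step that damps ratios between low values, the log2 change was -3.01. In control the gene was the second highest of the 7, close to *hb*, and in OA it ranked 5. Among the 16471 entries named as protein-coding it moved from percentile 60.1 in control to percentile 31.8 in OA.

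Few entries of the table differed as much in this direction. Of the 14291 protein-coding entries above 0 FPKM in at least 1 group, 30 had a log2 change as low as that of *Sry-alpha* or lower, itself included. Of these 30, 10 were listed at 0 in OA and 20, among them *Sry-alpha*, kept a value above 0. Of the 3035 entries with a mean between 5 and 20 FPKM, the range in which *Sry-alpha* falls, 15 had a change as low or lower. A value at least 2-fold lower in OA on the FPKM + 1 scale was seen in 2.14% of the 14291 entries, against 1 of the 7 patterning genes. A value at least 2-fold higher was seen in 2.51% of entries and in 0 of the 7. At a fold of 1.5, *kni* and *ftz* joined *Sry-alpha*, so that 3 of the 7 were lower, against 5.6% of entries. The change of *ftz*, however, is set by the added 1 FPKM, and *kni* barely passed at -0.589. Rescaling to the same total FPKM brought *kni* to -0.470, or to -0.575 without structural RNAs, both short of that fold. A change as low as that of *kni* or lower was found in 11.6% of entries with a mean between 1 and 5 FPKM.

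**Figure D1:**
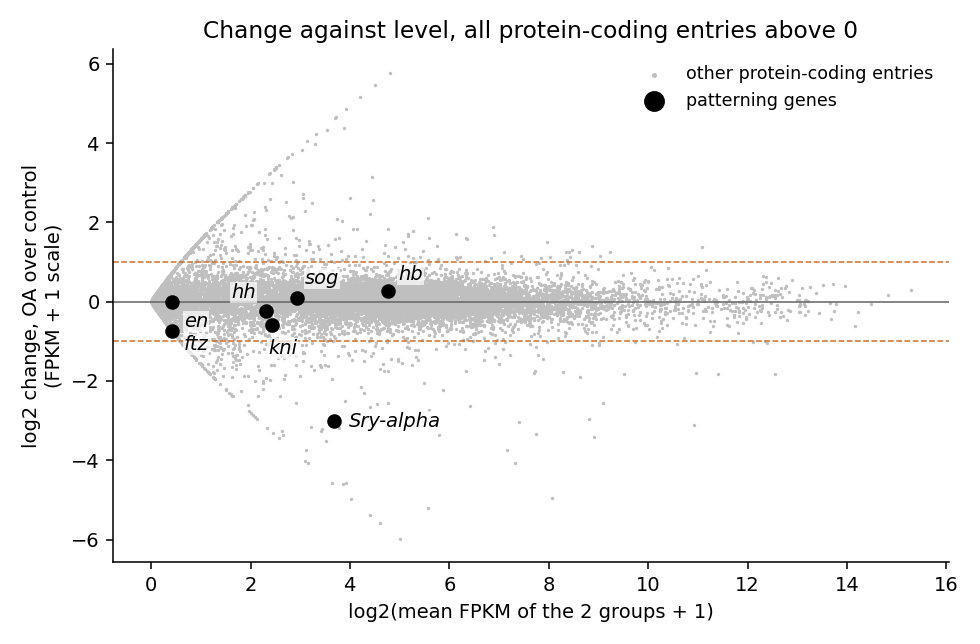
Log2 change from control to OA on the FPKM + 1 scale (vertical axis) against the log2 of the mean FPKM + 1 of the 2 groups (horizontal axis), with 1 point per protein-coding entry above 0 FPKM in at least 1 group. Dashed lines mark a 2-fold difference, the black points are the 7 patterning genes, and *Sry-alpha* at -3.01 is the only one of them beyond a dashed line.

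Entries beside *Sry-alpha* on the scaffold did not share its difference. The entry that ends 327 bases before it, GM12853, was at 21.9 FPKM in control and 25.9 FPKM under OA. On the other side GM12855 starts after a gap of 587 bases and was at 20.4 and 22.1 FPKM. In control the 3 entries thus had nearly the same level, and in OA only *Sry-alpha* was low. The named neighbours *janA* and *janB* were at 177 and 0.810 FPKM in control and at 218 and 0.322 FPKM in OA. Over the 3 entries on each side, log2 changes on the FPKM + 1 scale ran from -0.45 for *janB* to 0.55, and 0 of the 6 differed by 2-fold on it. In FPKM itself *janB* was over 2-fold lower in OA, at a level under 1 FPKM in both groups. No other entry of the table overlaps *Sry-alpha* or any of the other 6 genes.

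**Figure D2:**
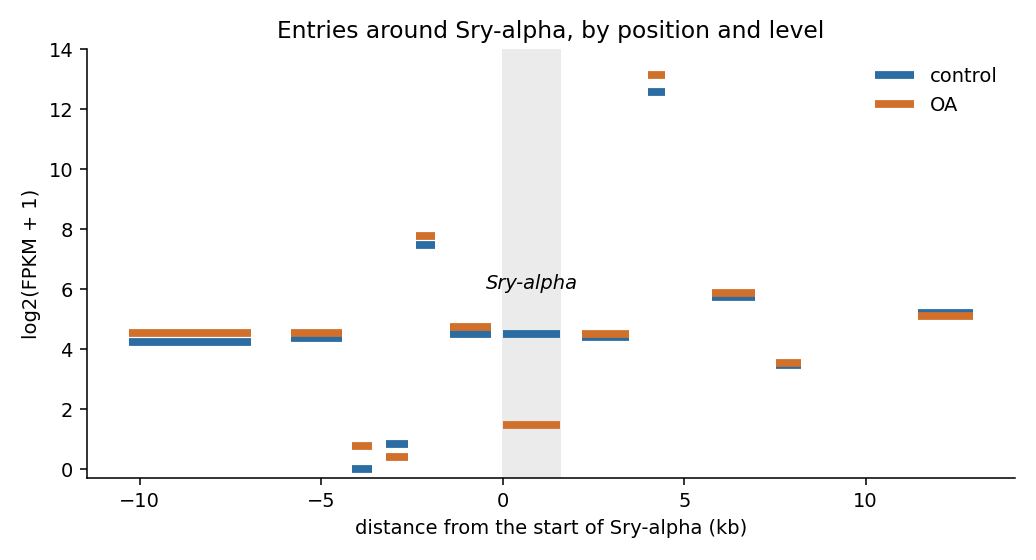
Each bar is 1 entry of the table, drawn over its span in kb from the start of *Sry-alpha* (horizontal axis) at its log2(FPKM + 1) in control (blue) and OA (orange). Within *Sry-alpha* (grey band) the bars lie far apart, at 21.6 FPKM in control and 1.80 FPKM under OA, whereas those of GM12853 and GM12855 on either side nearly coincide.

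The gap genes differed from each other in level and in direction. *hb* (FBgn0024403, scaffold 0, 17333934 to 17336207) encodes a zinc finger transcription factor of the anterior embryo. At 23.8 FPKM in control and 28.7 FPKM under OA it had the highest level of the 7 in both groups, above that of 62.1% and 65.4% of protein-coding entries. The OA value was 1.21-fold that of control, a log2 change of 0.26. Over all protein-coding entries above 0, 75.6% had a change as low or lower.

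*kni* (FBgn0044208, scaffold 11, 575326 to 578960) encodes a zinc finger repressor that acts in the abdomen of the embryo and later in the tracheae and wing veins. Its level was 5.45 FPKM in control and 3.29 FPKM under OA, 1.66-fold lower, with a log2 change of -0.59. Next to *Sry-alpha* and *ftz* this was the lowest change of the 7. A change as low or lower was found in 5.54% of the protein-coding entries above 0 and in 11.6% of those with a mean between 1 and 5 FPKM, where values scatter more. Its difference stayed below 2-fold at a level where 6.21% of entries were at least 2-fold lower and 8.38% at least 2-fold higher.

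*ftz* (FBgn0044209, scaffold 6, 2781323 to 2782711) encodes a homeodomain protein of alternate segments. It had 0.669 FPKM in control and was listed at 0 in OA. Because a listed 0 may reflect either no reads or an estimate that failed, no ratio is given. On the FPKM + 1 scale its log2 change was -0.74, a value that the added 1 FPKM sets. In all, 285 protein-coding entries between 0 and 1 FPKM in control were listed at 0 in OA. A change as low as that of *ftz* or lower was found in 3.65% of the protein-coding entries above 0. Of the 2420 entries with a mean between 0 and 1 FPKM, 3.93% had such a change. The authors' table marks *ftz* as not tested.

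The segment polarity genes *en* and *hh* act together in the embryo, where cells that express the homeodomain protein En secrete the ligand Hh. In the flies their levels were unequal. *hh* (FBgn0178454, scaffold 0, 19318852 to 19331239) was at 4.36 FPKM in control and 3.53 FPKM under OA. It was 1.23-fold lower, and 17.8% of the protein-coding entries above 0 had a change as low or lower. Of those with a mean between 1 and 5 FPKM, 24.3% had such a change. *en* (FBgn0044210, scaffold 1, 4963014 to 4966084) was at 0.342 FPKM in control and 0.333 FPKM under OA. The 2 values of *en* differed by a ratio of 0.974, the smallest difference of the 7, and it changed sign when the groups were scaled to equal total FPKM. Like *ftz* it was marked as not tested. Whether reads from a related gene were counted for *en* or *kni* was not examined. The table names no such relative, which could be present under a GM number.

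*sog* (FBgn0177413, scaffold 37, 77883 to 97676) spans 19794 bases, the longest span of the 7. It was at 6.41 FPKM in control and 6.90 FPKM under OA, 1.08-fold higher, with a log2 change of 0.09. This lay near the median change of the protein-coding entries above 0, 0.06. In level *sog* took the third place among the 7 in control and the second in OA.

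**Figure D3:**
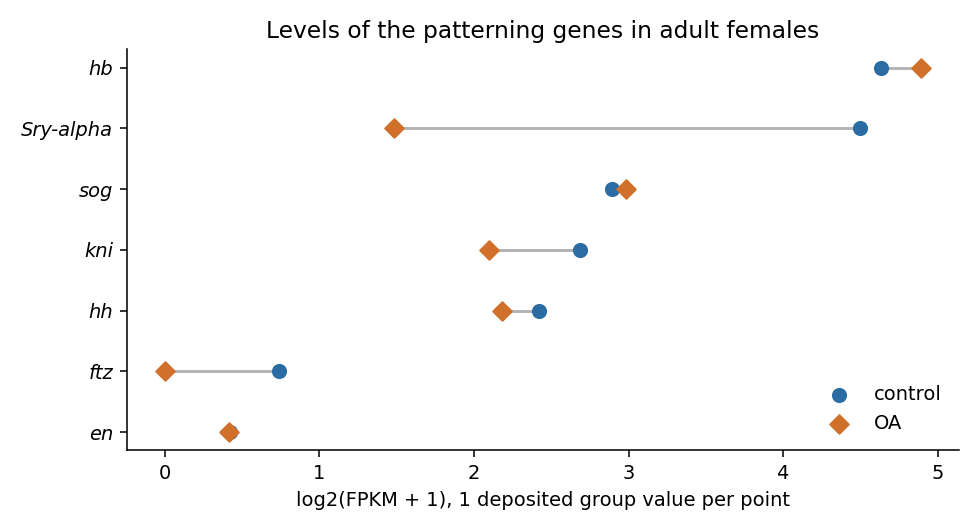
Level of each of the 7 genes as log2(FPKM + 1) (horizontal axis), with 1 deposited group value for control (blue circles) and 1 for OA (orange diamonds). The long line joins the values of *Sry-alpha*, 21.6 and 1.80 FPKM, and the points of *en* nearly cover each other.

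Ordered by level, the genes ran *hb*, *Sry-alpha*, *sog*, *kni*, *hh*, *ftz* and *en* in control and *hb*, *sog*, *hh*, *kni*, *Sry-alpha*, *en* and *ftz* in OA. FPKM is scaled to transcript length, so these levels can be compared between genes. Whether neighbours in this order differ beyond the spread of libraries is unknown. Of the 7 genes, 5 were at 1 FPKM or more in each group, and these were the same 5 that the authors' table marks as tested. Without *Sry-alpha* the summed level of the other 6 was 41.0 FPKM in control and 42.7 FPKM under OA. Of these sums the maternal and zygotic gene *hb* alone made up 23.8 FPKM in control and 28.7 FPKM under OA.

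By direction, 5 of the 7 genes were lower in OA, while 42.1% of the protein-coding entries above 0 were lower by any amount. The median log2 change of the 7 was -0.24, against 0.06 over the 14291 entries. Without *Sry-alpha* the median was -0.13. For the 6 zygotic genes it was -0.42, with values from -3.01 for *Sry-alpha* to 0.09 for *sog*. RNA was taken from whole flies, so fewer cells of a type and less RNA per cell cannot be told apart for any of these genes.

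The 7 lists of patterning genes used for comparison hold 100 symbols, of which the table names 13, the 7 genes included. Most protein-coding entries carry only a GM number, so other genes of the lists may be present unnamed. The other 6 were 2 genes of maternal RNAs, *bcd* and *nos*, the cellularisation gene *nullo*, the heart and mesoderm gene *tin*, and the homeotic genes *Ubx* and *Abd-B*. None of these 6 differed by 2-fold on the FPKM + 1 scale, 3 were higher and 3 lower in OA, and their median log2 change was 0.02.

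The 2 maternal RNAs differed widely in level and little between the groups. *nos*, whose RNA marks the posterior of the egg, was at 256 FPKM in control and 204 FPKM under OA, with a log2 change of -0.33. *bcd*, whose RNA marks the anterior, was at 14.1 and 14.8 FPKM, with a log2 change of 0.07. The maternally supplied genes *bcd*, *nos* and *hb* of the patterning lists thus had changes from -0.33 to 0.26.

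The zygotic gene *nullo*, which acts in cellularisation as *Sry-alpha* does, was at 0.845 FPKM in control and listed at 0 in OA. Its log2 change of -0.88 again rests on the added 1 FPKM. *tin* was the reverse, at 0.243 FPKM in OA but listed at 0 in control. *Abd-B*, which is also active in the adult abdomen, was at 1.94 and 2.41 FPKM. *Ubx* was at 9.21 and 9.07 FPKM, and its entry spans only 411 bases.

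**Figure D4:**
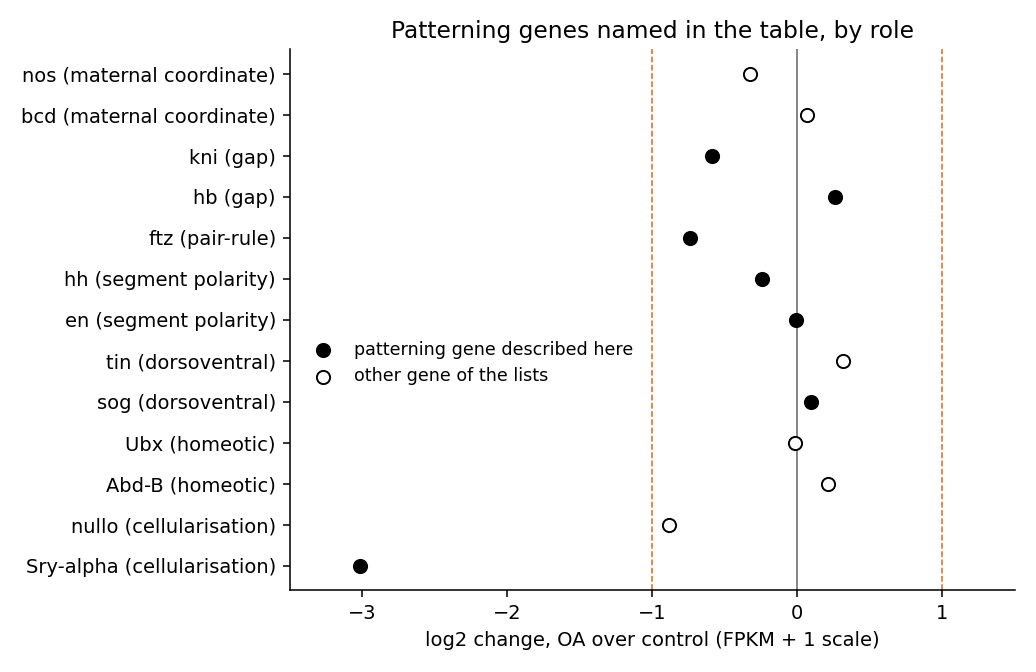
Log2 change from control to OA on the FPKM + 1 scale (horizontal axis) of the 13 patterning genes that the table names, grouped by role, with the 7 genes described here as filled points and the other 6 as open points. Dashed lines mark a 2-fold difference, and only *Sry-alpha* at -3.01 lies beyond them.

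Genes with the most similar pair of group values were sought among 346 other named protein-coding entries, as the distance between points of log2(FPKM + 1) over the 2 groups. For *Sry-alpha* the nearest were 2 copies of *His4*, at distances of 1.03 and 1.36, so no named entry came close. For *ftz* the nearest was *nullo*, at a distance of 0.14, followed by *TotF* at 0.22. For *hb* these were *Obp83g* at 0.02 and *w* at 0.08. *kni* and *hh* had the same 2 nearest entries, *Gld* and *Obp8a*, at 0.39 and 0.45 for *kni* and at 0.15 and 0.27 for *hh*. For *sog* they were a *His4* and a *His2B* entry, at 0.02 and 0.06, and for *en* they were *Obp58b* at 0.16 and *NT1* at 0.26. With only 2 group values this likeness is a match of levels and says nothing more.

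Neighbouring entries of all 7 genes were compared in the same way. The 3 entries on each side make 42 in all, of which 15 were listed at 0 in both groups. On the FPKM + 1 scale 0 of the 42 differed by 2-fold. In FPKM itself 2 did, *janB* and an entry beside *ftz* at 0.697 FPKM in control and 1.65 FPKM under OA. Log2 changes on the FPKM + 1 scale ran from -0.50 to 0.64. *ftz* lay among weakly expressed neighbours, of which 4 of 6 were listed at 0 in both groups and the highest had 1.91 FPKM.

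The label of whole female flies was checked on marker genes. The yolk protein gene *Yp2* was at 11392 FPKM in control and 15455 FPKM under OA, and the vitelline membrane gene *Vm32E* at 984 and 718 FPKM. The male seminal protein genes *Acp70A* and *Acp26Aa* were listed at 0 in both groups and *Acp36DE* was below 0.1 FPKM. Of the marker lists the table names 1 of 12 eggshell genes, 1 of 3 yolk genes and 2 of 10 germline genes. It names 3 of 8 genes of the testis and sperm list, all 3 of them the seminal protein genes above. Of the other lists it names 0 of 3 muscle, 0 of 3 nervous system and 0 of 2 fat body genes. Genes not named may be present under GM numbers, so these counts describe naming, not expression. In OA *Vm32E* and the germline gene *nos* were lower, by log2 changes of -0.45 and -0.33, as was *Sry-alpha*. *Yp2* was higher by 0.44 and *bcd*, the other germline gene named, by 0.07. The paper reported chorion protein genes among those significantly lower in OA. The chorion genes of the eggshell list are not named in the table, so *Vm32E* alone stands for the eggshell here. The part of these markers in the difference of *Sry-alpha* was not tested.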

How the data were processed

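Bowtie2 alignments to the *D. sechellia* genome from Ensembl were quantified by the authors in Cuffdiff (gene annotation release 34), which normalized libraries geometrically and corrected for transcript length and sequence bias. The authors deposited 1 FPKM value per gene and group, which combines 3 libraries. Depth per gene is unknown, since such values are not whole reads. The table also holds fold changes, a test statistic, p-values and q-values of the authors, which were not used. The status column was used only to say which entries were tested.

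Entries were sorted by name into 16471 protein-coding entries and 804 small or structural RNAs. Changes were log2 of OA FPKM + 1 over control FPKM + 1. A 2-fold difference was counted as a description. Start positions, counted from 0 in the file, are printed counted from 1: of 5796 GM entries under 1000 bases, 66.4% span whole codons when counted so and 17.2% otherwise.

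The genes named were the 7, every gene of the lists that the table names, the 2 named entries nearest in value and the entries beside *Sry-alpha*. The members and lists were chosen with earlier results of these data known. Maternal and zygotic classes come from knowledge of *D. melanogaster*, not from the table. No sequences were used here. The arithmetic of the 2-fold counts was tested on simulated data. Alternatives covered the pseudocount, scaling, fold and filter on low values. Python 3.11.15, NumPy 2.4.6, pandas 2.3.3 and Matplotlib 3.10.9 were used.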

Additional observations from a re-analysis of the deposited data

How the results depend on the processing

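No paired analysis was possible because libraries of a group are merged into 1 value, and for the same reason fits without each replicate were not run. The log2 change of *Sry-alpha* lay between -3.59 and -2.90 under 6 alternatives, that of *kni* between -0.73 and -0.47, that of *hh* between -0.30 and -0.12, that of *hb* between 0.20 and 0.40 and that of *sog* between 0.03 and 0.22. *ftz*, listed at 0 in OA, had a change of -2.94 with a pseudocount of 0.1 FPKM and of -1.23 with 0.5 FPKM, by construction of the pseudocount, and the count of genes at least 2-fold lower became 2 under each. With a fold of 1.5 the count became 3. Rescaling both groups to the same total FPKM raised all log2 ratios of FPKM itself by 0.15. On the FPKM + 1 scale, where low values shift less, it turned the log2 change of *en* from -0.0098 to 0.0276. Over all protein-coding entries, 306 were 2-fold lower and 358 higher, against 757 and 958 with a pseudocount of 0.1 FPKM. With none, 636 were lower and 566 higher, counted only among entries above 0 in both groups, a smaller set. Low levels and 1 value per group limit what can be said of *ftz*, *en*, *hh* and *kni*.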

Other observations

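Other genes of the egg that the table names were looked up after the values of the patterning genes were known. *dhd*, which encodes a thioredoxin of the egg, was at 8751 FPKM in control and 8238 FPKM under OA. The RNA-binding regulator of maternal RNAs *smg* was at 252 and 331 FPKM, and *plu*, needed for the first nuclear cycles, at 81.4 and 63.3 FPKM. The piRNA pathway genes *mael* and *spn-E* were at 45.7 and 46.4 FPKM and at 15.9 and 17.6 FPKM. Of these 5 genes 3 were higher and 2 lower in OA, 0 differed by 2-fold and the median log2 change was 0.02.

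Genes that pattern organs later in the embryo were low in both groups. *bap* was at 0.662 FPKM in control and 0.482 FPKM under OA, *trh* at 0.685 and 0.836 FPKM and the eye gene *ey* at 1.86 and 1.67 FPKM. The 8 entries of the *mir-309* cluster, microRNAs that the early embryo transcribes in *D. melanogaster*, were listed at 0 in both groups. Their spans are 64 to 99 bases and the libraries were made from poly(A) RNA. The zeros therefore do not show whether these microRNAs were transcribed.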
